A study of Macaca mulatta with 6 samples.

Results

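The miR-15, miR-16, miR-195 and miR-497 family was followed in small RNA libraries of juvenile rhesus monkey testis as all rows of the mature miRNA table named miR-15a, miR-15b, miR-16, miR-195 or miR-497. These were 11 of 701 mature miRNA rows, and 9 of the 11 were left when the 2 rows whose name also holds a precursor copy number, miR-16-1-3p and miR-16-2-3p, were set aside. Their 6 precursor genes among the 3083 genes of the small RNA table served as a second count of the family. Each library was made from the right testis of 1 wild-type animal. In the gonadotropin group, 3 animals had been given FSH and LH, the pituitary hormones that act on the testis, as a pulsatile infusion over 48 h; their libraries are gonadotropin 8 (an animal of 22 months), 10 (14 months) and 12 (15 months). In the vehicle group, 3 animals had been infused with vehicle alone; their libraries are vehicle 7 (an animal of 24 months), 9 (14 months) and 11 (15 months). The question posed by the study was whether gonadotropins change testicular miRNAs at the onset of puberty.

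A miRNA precursor is a hairpin from which an arm on the 5′ side and an arm on the 3′ side can be cut, and the arm that is loaded into Argonaute pairs with messenger RNAs through a short stretch near its 5′ end, the seed. The 5p arms of this family share their seed and are known to repress cyclins, cyclin-dependent kinases, WEE1, CHEK1 and the survival factor BCL2, so that they act as brakes of the cell cycle. The mouse family is best known from lymphocytes, where loss of Mir15a and Mir16-1 permits clonal expansion, and from the heart, where Mir195 rises as cardiomyocytes leave the cell cycle. The 3p arms have other seeds and are mostly discarded. miR-424 carries the same seed as the family, miR-503 a nearly identical one, and miR-103 and miR-107 an overlapping one, and these are called seed relatives here.

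The 6 precursor genes lay in pairs, each on the minus strand of rheMac8. mir-15a (ENSMMUG00000027073) and mir-16-1 (ENSMMUG00000026978) occupied chr17:29400064-29400292 with 57 bases between them. mir-15b (ENSMMUG00000027102) and mir-16-2 (ENSMMUG00000026920) occupied chr2:134308544-134308781 with 59 bases between them. mir-195 (ENSMMUG00000027038) and mir-497 (ENSMMUG00000026904) occupied chr16:6978210-6978618 with 210 bases between them. In the RefSeq gene table of another assembly (T2T-MMU8v2.0), the mir-15b pair lay inside SMC4, which encodes a condensin subunit, the mir-15a pair inside an unnamed lncRNA with the potassium channel regulator KCNRG on one side, and the mir-195 pair inside an unnamed lncRNA beside BCL6B. The mature miR-16-5p can be cut from both mir-16-1 and mir-16-2, so that its count cannot be assigned to either locus.

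A library held 1100190 to 1747355 counts of mature miRNAs, and 2146412 to 3170784 counts of small RNA genes. Vehicle 7 stood apart in the miRNA table, at 14.77 on a first principal component (47.5% of the variance) on which the others lay between -6.90 and 2.54, and results are therefore also given without it. The testis-rich miRNAs of a marker list (7 of 8 names found, 14 rows) summed to 16274 to 28672 CPM, that is counts scaled to a common library total, in gonadotropin testes and 17158 to 25801 CPM in vehicle testes, and the liver miRNA miR-122 to at most 1.59 CPM in any library. All levels are CPM after TMM scaling, and in whole testis fewer cells of a type and less RNA per cell cannot be told apart.

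The family was abundant in every library, and most of it consisted of the miR-16 and miR-195 5p arms. Family arms made 3.91 ± 0.538% of the miRNA counts in gonadotropin libraries and 3.63 ± 0.295% in vehicle libraries (SD, n = 3 each). Their summed TMM-scaled CPM, a level and not a share, was 35802 ± 4088 in gonadotropin and 39825 ± 6445 in vehicle libraries (SD, n = 3 each). Without vehicle 7 the vehicle mean was 36109 CPM. The order of the group means thus differs between the share and the scaled level. The lowest share was 3.32% in gonadotropin 10 (Wilson 95% interval 3.30 to 3.35%) and the highest 4.38% in gonadotropin 8 (4.34 to 4.42%), both intervals covering counting error only. miR-16-5p and miR-195-5p together held 82.8 ± 1.99% of the family's CPM in gonadotropin testes and 82.5 ± 1.16% in vehicle testes (SD, n = 3 each). In the order of mean level, miR-16-5p took place 16 and miR-195-5p place 17 among the 701 mature miRNAs, miR-497-5p place 66, miR-15a-5p place 74 and miR-15b-5p place 86.

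**Figure D1:**
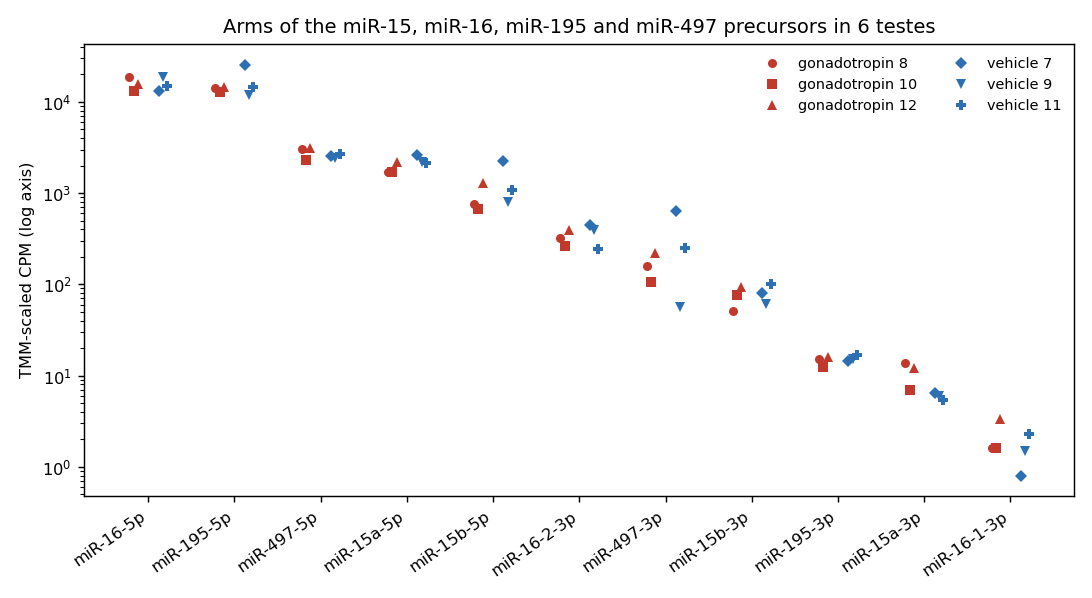
TMM-scaled CPM of the 11 family arms in each library, on a log axis; each point is 1 library, gonadotropin in red and vehicle in blue. The 5p arms take the 5 leftmost places, and the widest spread is that of miR-497-3p in the vehicle libraries (56.5 to 637 CPM).

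The order of the mean levels held in full in each gonadotropin library and in no vehicle library, but in vehicle 9 and 11 it broke at near ties. In vehicle 9 miR-497-3p had 56.5 CPM against 61.0 CPM for miR-15b-3p. In vehicle 11 miR-497-3p had 252 CPM against 245 CPM for miR-16-2-3p. How often such a split arises among other miRNAs was not counted. miR-16-5p was above miR-195-5p in 5 of 6 libraries, the exception being vehicle 7, and the values of this pair overlapped. miR-195-5p was above miR-497-5p and miR-15a-5p above miR-15b-5p in 6 of 6, and miR-497-5p above miR-15a-5p in 5 of 6. Below them, miR-16-2-3p was above miR-497-3p in 4 of 6 libraries, which gives this pair no firm order, and miR-497-3p was above miR-15b-3p in 5 of 6. Mature miRNAs have nearly the same length, so that these levels were compared without a length correction; differences in how well each sequence enters a library were not corrected.

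miR-16-5p, the most abundant member, had 18567, 13070 and 15711 CPM in gonadotropin 8, 10 and 12, against 13067, 18563 and 14749 CPM in vehicle 7, 9 and 11. The groups overlapped fully; the highest and the lowest library of one group nearly matched those of the other. Its log2 fold change, gonadotropin over vehicle, was 0.030 (SE 0.30, 95% interval -0.61 to 0.67, edgeR quasi-likelihood adjusted p = 0.975), and it was -0.093 with upper-quartile scaling.

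miR-195-5p had 14105, 12935 and 14535 CPM in gonadotropin 8, 10 and 12, against 25623, 11971 and 14493 CPM in vehicle 7, 9 and 11. Vehicle 7 was the highest, and the other 5 libraries lay between 11971 and 14535 CPM, with the groups overlapping. The log2 fold change was -0.33 (SE 0.33, 95% interval -1.04 to 0.39, edgeR quasi-likelihood adjusted p = 0.881) and 0.072 without vehicle 7.

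miR-497-5p, cut from the precursor next to that of miR-195, had 3045, 2294 and 3083 CPM in gonadotropin 8, 10 and 12, against 2542, 2398 and 2706 CPM in vehicle 7, 9 and 11. Its level was among the steadiest of the family, with 1.34 times between the highest and the lowest library, and vehicle 7 was not set apart in it. The log2 fold change was 0.14 (SE 0.29, 95% interval -0.50 to 0.78, edgeR quasi-likelihood adjusted p = 0.952).

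miR-15a-5p had 1700, 1689 and 2178 CPM in gonadotropin 8, 10 and 12, against 2620, 2174 and 2121 CPM in vehicle 7, 9 and 11. Gonadotropin 8 and 10 were below all vehicle libraries, and gonadotropin 12 lay among them. The log2 fold change was -0.31 (SE 0.30, 95% interval -0.97 to 0.34, edgeR quasi-likelihood adjusted p = 0.860). This value kept its sign in all 15 alternatives, from -0.43 to -0.058, as did those of miR-15a-3p, miR-15b-5p and miR-497-5p. The alternatives reuse the same libraries, and the gene mir-15a turned to 0.011 without vehicle 7.

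miR-15b-5p had 754, 676 and 1292 CPM in gonadotropin 8, 10 and 12, against 2225, 795 and 1092 CPM in vehicle 7, 9 and 11. Vehicle 7 was the highest and the other vehicle libraries lay within the gonadotropin range. The log2 fold change was -0.59 (SE 0.42, 95% interval -1.51 to 0.32, edgeR quasi-likelihood adjusted p = 0.802) and -0.057 without vehicle 7.

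The 3p arms were far less abundant, and they included the most variable member. miR-497-3p had 160, 107 and 219 CPM in gonadotropin 8, 10 and 12, against 637, 56.5 and 252 CPM in vehicle 7, 9 and 11. The vehicle libraries held both the highest and the lowest value, 11.3 times apart. The log2 fold change was -0.96 (SE 0.69, 95% interval -2.50 to 0.58, edgeR quasi-likelihood adjusted p = 0.802), 0.059 without vehicle 7 and -1.37 without vehicle 9. Without vehicle 9 the edgeR quasi-likelihood adjusted p of this arm was 0.172, the smallest of any family arm in the 15 alternatives, and over them it ran from 0.172 to 0.987.

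miR-16-2-3p, the only arm that counts the mir-16-2 locus alone, had 319, 264 and 397 CPM in gonadotropin 8, 10 and 12, against 443, 392.5 and 245 CPM in vehicle 7, 9 and 11. The groups overlapped, and the log2 fold change was -0.14 (SE 0.34), turning to 0.12 with library totals. Its counterpart of the mir-16-1 locus, miR-16-1-3p, had 2, 3 and 5 counts in gonadotropin 8, 10 and 12, against 1, 2 and 3 counts in vehicle 7, 9 and 11, and was too rare to be tested. miR-15b-3p lay between 50.7 and 94.3 CPM in gonadotropin testes and between 61.0 and 101 CPM in vehicle testes, with a log2 fold change of -0.13 (SE 0.36). miR-195-3p lay between 12.3 and 15.9 CPM in gonadotropin testes and between 14.3 and 16.9 CPM in vehicle testes (-0.093, SE 0.39). With library totals these 2 log2 fold changes were 0.11 for miR-15b-3p and 0.15 for miR-195-3p.

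miR-15a-3p was the only member whose groups did not overlap. It had 17, 13 and 18 counts in gonadotropin 8, 10 and 12, against 8, 8 and 7 counts in vehicle 7, 9 and 11, or 13.7, 6.97 and 11.95 CPM in gonadotropin 8, 10 and 12 against 6.37, 6.03 and 5.38 CPM in vehicle 7, 9 and 11. Gonadotropin 10 was barely above vehicle 7. The log2 fold change was 0.85 (SE 0.45, 95% interval -0.12 to 1.82, edgeR unadjusted p = 0.0822 and quasi-likelihood adjusted p = 0.702). It passed the filter on low counts (7.13 CPM before TMM scaling in at least 3 libraries) through the gonadotropin libraries alone, 3 of 3 against 0 of 3 vehicle libraries, so that the separation of the groups and the passing of the filter rest on the same counts. Among the 433 tested miRNAs, all gonadotropin libraries lay above all vehicle libraries in 6.93% and below them in 4.39%, and the family counts were 1 and 0 of 10.

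Of the 10 arms that passed the filter, 0 passed the edgeR quasi-likelihood test, where 0.231% of all tested miRNAs did, and 0 had an unadjusted p under 0.05, where 6% of all did. By DESeq2 and the edgeR exact test the count was 0 as well, where each called 3 of all 433. Limma voom called 0 of all 433, so that its 0 for the family says nothing about the members. With so few calls over all miRNAs, the 0 of the other fits says little about the members either. The log2 fold changes were below 0 in 7 and above 0 in 3, with a median of -0.13. Over all 433, 54% were below 0, with a median of -0.057. The split changed with the scaling between libraries. With library totals, which moved the median of all miRNAs to 0.19, 4 of 10 were below 0. With upper-quartile scaling, which moved it to -0.15, 8 of 10 were below 0. The split also changed with the libraries used. Without vehicle 7 (family median -0.0062) or without vehicle 11, 5 of 10 were below 0. The count was 6 without vehicle 9, and 7 without any 1 gonadotropin library. The counts allow no statement that the members did not change, since the intervals reach beyond 0.3 on the log2 scale on both sides for every arm but miR-15a-3p, whose lower bound was -0.12.

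**Figure D2:**
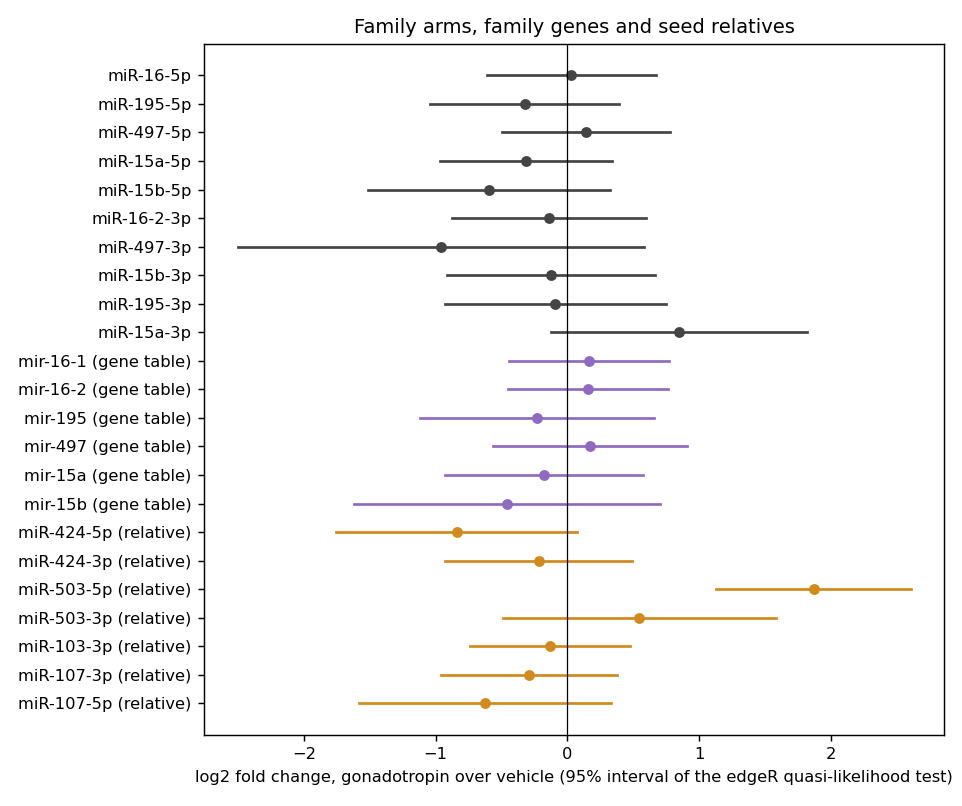
Log2 fold change, gonadotropin over vehicle, with its 95% interval, for the tested family arms (grey), the family genes of the small RNA table (purple) and the tested arms of the seed relatives (orange). The interval crosses 0 for each family arm and gene, and lies above 0 for miR-503-5p alone.

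The 6 precursor genes were a second count of the same libraries, not a second experiment. By the edgeR quasi-likelihood test 0 of 6 were called (adjusted p = 0.998 for each), beside 0.139% of the 717 tested genes, and 0 of 6 had an unadjusted p under 0.05 (4.46% of all). The groups overlapped in all 6, where over all tested genes the gonadotropin libraries lay above the vehicle libraries in 4.88% and below them in 3.35%, or 8.23% either way. By DESeq2 and the edgeR exact test 0 of 6 passed too, where each called 3 of all 717, and limma voom called 0 of all 717. mir-15b had a log2 fold change of -0.46 (SE 0.51), mir-195 of -0.23 (SE 0.39), mir-15a of -0.18 (SE 0.33), mir-497 of 0.17 (SE 0.32), mir-16-1 of 0.16 (SE 0.27) and mir-16-2 of 0.16 (SE 0.26). Without vehicle 7 the values of mir-195, mir-15b and mir-15a were 0.27, 0.14 and 0.011.

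Gene counts were close to the sum of the 2 arms in the miRNA table, between 0.99 and 1.04 times that sum for mir-15a, mir-15b, mir-195 and mir-497. mir-16-1 had 23750, 25463 and 24382 counts in gonadotropin 8, 10 and 12, against 17433, 25500 and 19877 counts in vehicle 7, 9 and 11. mir-16-2 had 24105, 25884 and 24897 counts in gonadotropin 8, 10 and 12, against 17947, 25985 and 20156 counts in vehicle 7, 9 and 11. The ratio of mir-16-1 to mir-16-2 was 0.97 to 0.99 in every library, and each gene held 1.03 to 1.06 times the count of miR-16-5p plus its own 3p arm. Reads of miR-16-5p were thus counted at both genes, and the pair is 1 measurement.

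The balance between the arms of a precursor does not depend on the scaling between libraries. Among the 5 names, with both 3p arms of miR-16 summed, miR-195 was the most one-sided, with 899, 1026 and 894 counts of the 5p arm for each count of the 3p arm in gonadotropin 8, 10 and 12, against 1738, 775 and 838 in vehicle 7, 9 and 11. For miR-15b the same ratio was 14.8, 8.79 and 13.7 in gonadotropin 8, 10 and 12, against 27.8, 13.0 and 10.7 in vehicle 7, 9 and 11. Vehicle 7 was the highest in both precursors. For miR-497 it was the lowest: the ratio was 19.0, 21.4 and 14.0 in gonadotropin 8, 10 and 12, against 3.99, 42.2 and 10.7 in vehicle 7, 9 and 11.

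The arm ratio of miR-15a was 121, 233 and 177 in gonadotropin 8, 10 and 12, against 387, 340 and 368 in vehicle 7, 9 and 11. All gonadotropin libraries were below all vehicle libraries, and the difference in the mean log2 ratio was -1.09 (7.42 ± 0.48 in gonadotropin and 8.51 ± 0.095 in vehicle, SD, n = 3 each; exact two-sided permutation p = 0.1, the smallest that 3 against 3 libraries can give). It was -1.05 without vehicle 7 and between -1.32 and -0.84 without any 1 library. The 3p counts behind it, 7 to 18 per library, set its precision. Of the 10 ratios compared it was the 1 whose groups did not overlap, and the Benjamini-Hochberg adjusted permutation p over the 10 was 0.875. Among the levels of the 433 tested miRNAs, the groups did not overlap in 11.3%, either way. How often they do so in ratios of other miRNAs was not counted. The miR-15a-3p counts behind this ratio are the ones already described, so it is not a separate result.

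**Figure D3:**
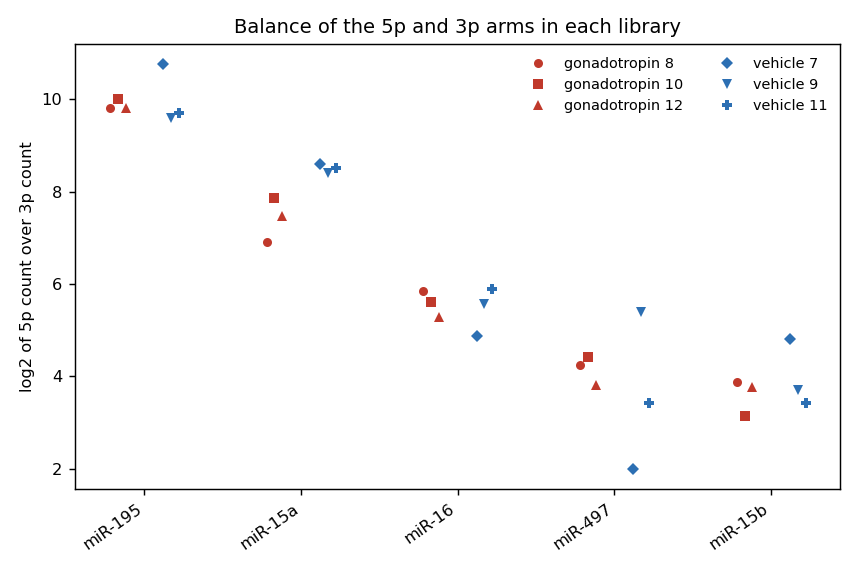
Log2 of the 5p count over the 3p count (0.5 added to each) for the 5 family names, miR-16 with both 3p arms summed; each point is 1 library, gonadotropin in red and vehicle in blue. The groups are apart for miR-15a only, and vehicle 7 is the highest library for miR-15a, miR-15b and miR-195 and the lowest for miR-16 and miR-497.

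Ratios between 5p arms asked whether members of the family keep pace with each other, within a precursor pair or between pairs. Those with miR-16-5p mix both mir-16 loci. miR-195-5p had 4.63, 5.64 and 4.71 counts for each count of miR-497-5p in gonadotropin 8, 10 and 12, against 10.1, 4.99 and 5.36 in vehicle 7, 9 and 11. Outside vehicle 7 this ratio lay between 4.63 and 5.64. The difference in mean log2 ratio was -0.38 (exact two-sided permutation p = 0.3), and -0.056 without vehicle 7.

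miR-16-5p had 10.9, 7.73 and 7.21 counts for each count of miR-15a-5p in gonadotropin 8, 10 and 12, against 4.99, 8.54 and 6.95 in vehicle 7, 9 and 11. Set against miR-15b-5p it had 24.6, 19.3 and 12.2 counts in gonadotropin 8, 10 and 12, against 5.87, 23.3 and 13.5 in vehicle 7, 9 and 11. Vehicle 7 was the lowest library in both ratios. The differences in mean log2 ratio were 0.35 for miR-15a-5p and 0.55 for miR-15b-5p (exact two-sided permutation p = 0.4 and 0.6), and 0.14 and 0.016 without vehicle 7. miR-15b-5p over miR-15a-5p (-0.20, exact permutation p = 0.7) and miR-195-5p over miR-16-5p (-0.28, exact permutation p = 0.8) turned to 0.12 and 0.15 without vehicle 7.

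The members were not alike in how vehicle 7 departed from the other libraries. Against the mean log2 CPM of the other 5 libraries, vehicle 7 was at 2.17 for miR-497-3p, 1.31 for miR-15b-5p and 0.92 for miR-195-5p, but at -0.29 for miR-16-5p and -0.080 for miR-497-5p. Vehicle 9 was at -1.98 for miR-497-3p. Vehicle 7 came from the oldest animal, aged 24 months; gonadotropin 8, aged 22 months, was at -0.20 for miR-497-3p, -0.56 for miR-15b-5p and -0.12 for miR-195-5p. Vehicle 7 also had the lowest sum of a list of white blood cell miRNAs (4 of 4 names found; 995 CPM, with 1912 to 2257 CPM in gonadotropin libraries and 1538 and 1777 CPM in vehicle 9 and 11). Its sum of duct epithelium miRNAs was the highest (240 CPM, with 95.5 to 174 CPM in gonadotropin libraries and 104 and 137 CPM in vehicle 9 and 11), and so was that of neural miRNAs (190 CPM, with 95.5 to 107 CPM in gonadotropin libraries and 72.3 and 131 CPM in vehicle 9 and 11). Single rows of these lists differed. Of the tested rows, miR-223, miR-142-5p, miR-150-5p, miR-200a-3p, miR-200c-3p, miR-141-3p, miR-205, miR-9-3p and miR-9-5p went with their sums in vehicle 7. miR-155 was instead highest there (26.3 CPM). miR-142-3p was not the lowest there (170 CPM, with 157 CPM in vehicle 9 and 163 CPM in gonadotropin 10). miR-429-3p was lower in vehicle 7 than in gonadotropin 8 (31.9 against 37.8 CPM). miR-203 was lower in vehicle 7 than in gonadotropin 8 (16.7 against 20.1 CPM), as was miR-124a-3p (55.8 against 56.3 CPM). miR-219 and miR-219-5p held the same values and both entered the neural sum. The part of age and of these cell types in the values of vehicle 7 was not tested.

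**Figure D4:**
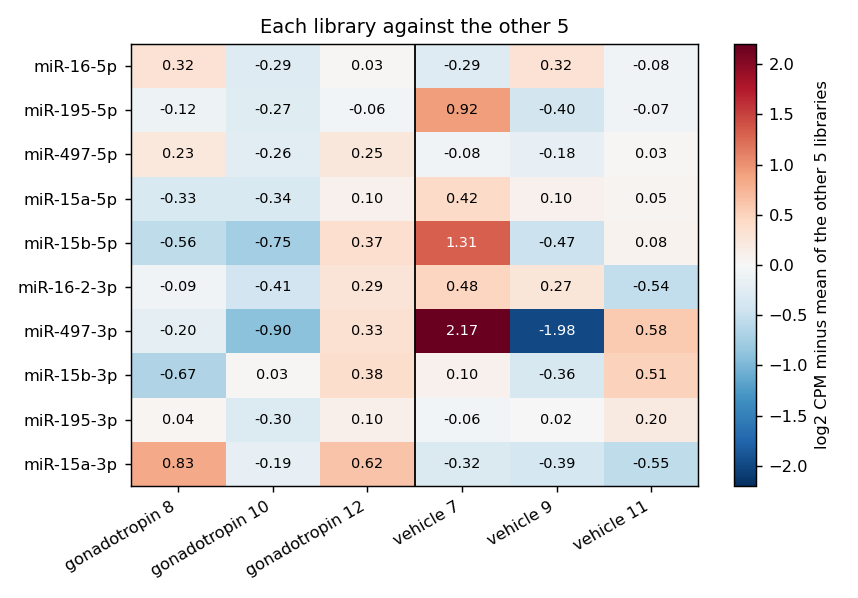
Log2 CPM of each tested family arm in each library minus its mean over the other 5 libraries, with gonadotropin libraries left of the line and vehicle libraries right of it. The largest departures are those of miR-497-3p in vehicle 7 (2.17) and vehicle 9 (-1.98).

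miR-16 is abundant in blood cells, so that blood markers were read beside it. Red blood cell miRNAs (miR-451, miR-144 and miR-486, 3 of 3 names found) summed to 5778 to 7259 CPM in gonadotropin libraries and 4171 to 9301 CPM in vehicle libraries. White blood cell miRNAs summed to 1912 to 2257 CPM in gonadotropin libraries and 995 to 1777 CPM in vehicle libraries. Of their tested rows, 5 of 5 had a log2 fold change above 0 (median 0.43), where 46% of all tested miRNAs did. In the edgeR quasi-likelihood test 0 of them passed, where 0.231% of all did. The endothelial miR-126 was at 6871 to 11264 CPM in gonadotropin libraries and 5534 to 9164 CPM in vehicle libraries, and muscle miRNAs at 21488 to 40691 CPM in gonadotropin libraries and 23510 to 50445 CPM in vehicle libraries. No row of these 4 lists was at 0 in all libraries, and their part in the level of miR-16-5p was not tested.

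Among the tested miRNAs outside the family, those whose centred log2 CPM differed least over the 6 libraries were found for each 5p arm by the root mean square difference. For miR-16-5p these were miR-146b-5p (0.12), let-7i-5p (0.13) and miR-516b (0.13), and for miR-195-5p they were miR-200c-3p (0.095), miR-17-3p (0.14) and miR-660-5p (0.15). miR-15a-5p lay nearest to miR-30b-5p, miR-24-5p and miR-30e-3p (0.14 to 0.15), miR-497-5p to miR-135b-3p, miR-296-3p and miR-152-3p (0.12 to 0.15), and miR-15b-5p to let-7b-3p, miR-6134 and miR-499-5p (0.23 to 0.25). Among the 9 other tested arms of the family, miR-15a-5p was the nearest to miR-195-5p (0.26, with 29 of 423 outside miRNAs nearer) and miR-195-3p the nearest to miR-16-5p (0.19, with 19 of 423 nearer). The closest arms of the family were miR-497-5p and miR-195-3p (0.12, with 1 of 423 outside miRNAs nearer to each), which come from neighbouring precursors. The outside miRNAs are many more than the arms, arms with little variation lie near each other by this measure, and the values describe these 6 libraries only.

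Among the seed relatives, miR-503-5p, which restrains cyclin D1, was the 1 of 7 tested relatives that passed. It was also the only 1 of all 433 tested miRNAs that passed (0.231%), so that this share is miR-503-5p itself and no separate background. It had 13114, 6173 and 8334 CPM in gonadotropin 8, 10 and 12, against 2287, 2805 and 2472 CPM in vehicle 7, 9 and 11. Its log2 fold change was 1.87 (SE 0.34, edgeR quasi-likelihood adjusted p = 0.0497), and all gonadotropin libraries were above all vehicle libraries, as in 6.93% of all tested miRNAs. The call was lost in 8 of 15 alternatives (adjusted p from 0.000148 in DESeq2 to 0.317 in edgeR with pairs by age), among them without vehicle 7 (0.308), vehicle 11 (0.122), gonadotropin 8 (0.297) and gonadotropin 12 (0.125), while the log2 fold change stayed between 1.51 and 2.12. Counted as a gene, mir-503 was not called (log2 fold change 1.81, SE 0.32, edgeR quasi-likelihood adjusted p = 0.139).

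miR-424-5p, which has the family's own seed, had 31436, 62380 and 43070 CPM in gonadotropin 8, 10 and 12, against 122748, 36311 and 86267 CPM in vehicle 7, 9 and 11. The groups overlapped through vehicle 9, and the log2 fold change was -0.84 (SE 0.42, edgeR quasi-likelihood adjusted p = 0.702; -0.42 without vehicle 7). miR-103-3p and miR-107-3p, made from introns of the pantothenate kinase genes, had log2 fold changes of -0.13 (SE 0.28) and -0.29 (SE 0.31), the first turning to 0.11 with library totals. Of the 7 tested relatives 5 had a log2 fold change below 0, with a median of -0.22, beside 54% and a median of -0.057 over all 433 tested miRNAs.

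The summed 5p arms of the family came to 38172, 30664 and 36799 CPM in gonadotropin 8, 10 and 12, against 46076, 35901 and 35160 CPM in vehicle 7, 9 and 11. For each count of miR-424-5p there were 1.21, 0.492 and 0.854 counts of family 5p arms in gonadotropin 8, 10 and 12, against 0.375, 0.989 and 0.408 in vehicle 7, 9 and 11, with overlapping groups. For each count of miR-503-5p there were 2.91, 4.97 and 4.42 in gonadotropin 8, 10 and 12, against 20.1, 12.8 and 14.2 in vehicle 7, 9 and 11, where the separation is that of miR-503-5p itself. The family's 5p arms, miR-424-5p and miR-503-5p together summed to 90048 ± 8400 CPM in gonadotropin testes and 123342 ± 48050 CPM in vehicle testes (SD, n = 3 each), and to a vehicle mean of 99458 CPM without vehicle 7.

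**Figure D5:**
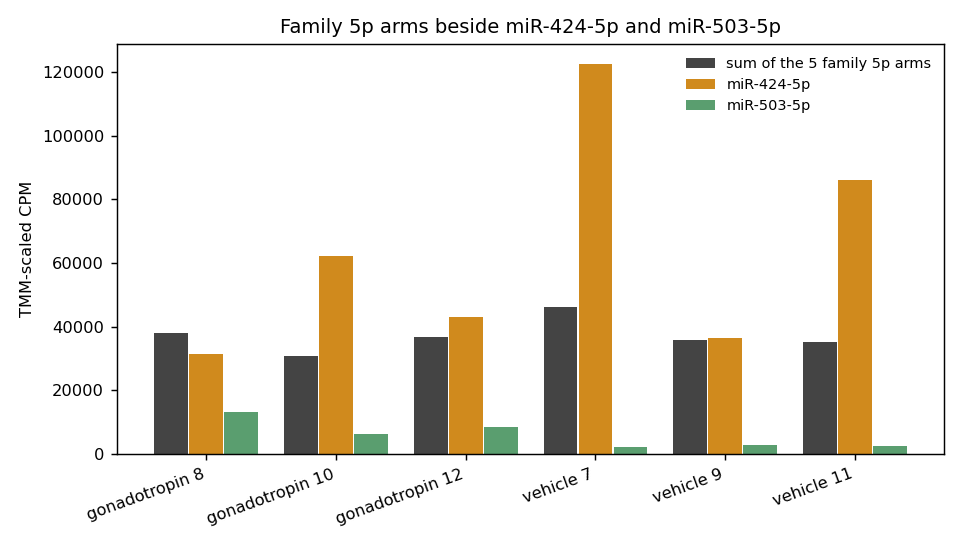
TMM-scaled CPM of the summed 5p arms of the family, of miR-424-5p and of miR-503-5p in each library, gonadotropin left and vehicle right. The family bars lie between 30664 and 46076 CPM, whereas miR-424-5p spans 31436 to 122748 CPM and miR-503-5p is higher in each gonadotropin library than in any vehicle library.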

How the data were processed

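Small RNA libraries of testis from 6 rhesus monkeys were compared, 3 gonadotropin against 3 vehicle. The authors deposited raw counts per mature miRNA (miRDeep2 on rheMac2) and raw counts per small RNA gene (HTSeq on rheMac8), per the file names and headers. Tools named in the submitters' processing notes are HTSeq 0.6.1p1, Bowtie 1.1.2, cutadapt 1.9.1 and edgeR; no source used here states how reads with several map positions were treated. The titles name Ion Torrent and the extraction protocol Illumina steps; which of them made these libraries is not stated. The authors also deposited edgeR exact test results with log2 fold changes, p-values and CPM; in the miRNA table these CPM equal count over table total. Only the counts were used for tests.

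Rows were filtered with filterByExpr (minimum count 10), which kept 433 of 701 miRNAs and 717 of 3083 genes, scaled by TMM and tested over each whole table in edgeR 4.0.16 (R 4.3.3; quasi-likelihood, robust), gonadotropin over vehicle. Calls were made at 0.05 after Benjamini-Hochberg adjustment. The approximate SE is the absolute log2 fold change over the square root of F, and the 95% interval uses the t distribution with the test's degrees of freedom. Library ratios had 0.5 added to each count and were compared by exact two-sided permutation (scipy 1.17.1). Total counts were 1100190 to 1747355 and 2146412 to 3170784 per library; reads are not independent molecules, so intervals of shares cover counting error only. Biological coefficients of variation were 35.1% and 46.2%. Scripts were tested on simulated counts. The alternatives were library totals, upper-quartile scaling, no filter, DESeq2 1.42.0, the edgeR exact test, limma voom (3.58.1), no robust estimation, age as a covariate, pairs by age and each library left out. All family rows, the seed relatives and, for each 5p arm, the 3 miRNAs nearest to it were named; a match by sequence was not used here. Members and lists were chosen with earlier results of these data known.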

Additional observations from a re-analysis of the deposited data

How the results depend on the processing

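No family arm or gene was called in any of the 15 alternatives, but few rows of any kind were. The most were 4 of 447 miRNAs (without vehicle 9) and 3 genes (DESeq2 among others). With limma voom, no robust estimation, age as a covariate or pairs by age, 0 of all 433 miRNAs were called. Leaving out gonadotropin 8, gonadotropin 12, vehicle 7 or vehicle 11 also gave 0 called miRNAs. In those fits the family's count of 0 carries no information of its own. With library totals, which moved the median of all miRNAs to 0.19 on the log2 scale, the log2 fold change turned to 0.11 for miR-15b-3p, 0.12 for miR-16-2-3p, 0.15 for miR-195-3p, 0.11 for miR-103-3p and 0.051 for miR-424-3p. With upper-quartile scaling it turned to -0.093 for miR-16-5p. Leaving out 1 library gave, as lowest and highest log2 fold change, -0.33 and 0.16 for miR-15b-3p, -0.12 and 0.24 for miR-16-5p, -0.29 and 0.045 for miR-16-2-3p, -0.45 and 0.072 for miR-195-5p, -0.16 and 0.059 for miR-195-3p, -1.37 and 0.059 for miR-497-3p, -0.30 and 0.033 for miR-424-3p and -0.18 and 0.036 for miR-103-3p. Among genes it gave -0.37 and 0.011 for mir-15a, -0.87 and 0.14 for mir-15b, -0.58 and 0.27 for mir-195 and -0.067 and 0.33 for mir-497. The difference in mean log2 ratio between the arms then ran from -0.65 to 0.038 for miR-15b, -0.14 to 0.37 for miR-16, -0.36 to 0.22 for miR-195 and -0.25 to 1.45 for miR-497. That of miR-15b-5p over miR-15a-5p ran from -0.49 to 0.12 and that of miR-195-5p over miR-16-5p from -0.65 to 0.15. Each of these ratios changed sign without vehicle 7. The family's share was 3.58% in gonadotropin and 3.98% in vehicle libraries with TMM-scaled CPM, so that the order of the group means depends on the scaling. The cause was not tested. Animal numbers are not shared between the groups, so that no animal was its own control. The pairs by age joined consecutive animal numbers (7 with 8, 9 with 10, 11 with 12), which are near in age. With them 0 members were called, as were 0 of all 433 miRNAs and 0 of all 717 genes. With 7 to 18 counts per library, depth limits miR-15a-3p, and with 1 to 5 it keeps miR-16-1-3p out of the test.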

Other observations

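The authors' deposited table gave log2 fold changes of the same sign as here for the family, from -0.85 for miR-497-3p to 0.91 for miR-15a-3p, with an adjusted p of 0.853 for miR-15a-3p, 0.935 for miR-497-3p and 1 for the other members. It also lists miR-16-1-3p, with a log2 fold change of 0.52 and an adjusted p of 1.

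The gene mir-107 had 13219, 19711 and 14049 counts in gonadotropin 8, 10 and 12, against 13108, 16543 and 13091 counts in vehicle 7, 9 and 11, which is 4.29 to 6.92 times the sum of its arms in the miRNA table. These counts were nearly those of mir-103-1 (13231, 19714 and 14066 counts in gonadotropin 8, 10 and 12, against 13108, 16568 and 13091 counts in vehicle 7, 9 and 11). For this relative the gene table and the miRNA table therefore measure different things, unlike for mir-15a, mir-15b, mir-195 and mir-497.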
